A study of Mus musculus with 6 samples.

Results

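The genes described are 55 enzymes and carriers of the urea cycle and of amino acid breakdown, taken as a list of gene symbols and matched to the identifiers of the deposited count table. Of these, 54 were found among the 41388 identifiers of the table, and all 54 were among the 12988 genes with enough counts to be tested. Gstz2 matched no identifier and has no value. RNA was measured by sequencing in liver of mice aged 6 weeks, in 3 wild type and 3 Atp7b-/- libraries. Atp7b encodes the ATPase that carries copper into bile, and its loss in humans causes Wilson disease. Both genotypes were kept on the mixed background C57BL x 129S6/SvEv and ate the same chow, with copper at 16 ppm, zinc at 100 ppm and iron at 235 ppm. No other treatment is given in the labels, and the labels do not say which part of Atp7b was removed. Wild type replicate 1 and Atp7b-/- replicate 3 were read from both fragment ends (paired-end) as a later set, and the other 4 libraries from 1 end (single-end), all with reads of 54 bases. The labelled sex was male for wild type replicate 1 and for replicates 1 and 2 of Atp7b-/- liver, and female for the other 3 libraries. Whether each library came from a separate animal is not stated, so the p-values measure the spread between libraries, which may be technical in part.

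The liver removes most of the body's surplus amino acid nitrogen. Transaminases collect it on glutamate and aspartate, and the periportal hepatocyte turns it into urea through carbamoyl phosphate, citrulline, argininosuccinate and arginine. The carbon skeletons are broken down by dedicated pathways, many of them mitochondrial, and several first enzymes (Tat, Tdo2, Sds and Gpt2 among them) are known to follow glucocorticoids, glucagon, feeding and the time of day.

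Levels are given in CPM, which are counts relative to the library's total, itself adjusted by the TMM method. Total counts ran from 5919389 to 25973968 per library. Atp7b itself was lower in Atp7b-/- liver (log2 fold change -1.73, edgeR adjusted p = 0.02), with 25.3 to 85.2 CPM in wild type and 13.3 to 19.2 CPM in Atp7b-/- liver. The RNA of 2 libraries went against the labelled sex. Atp7b-/- replicate 3, labelled female, had Xist at 0.482 CPM and the Y-linked Ddx3y at 126 CPM, and wild type replicate 3, labelled female, had Xist at 17.4 CPM and Ddx3y at 28.0 CPM. Wild type replicate 2 alone had high Xist (371 CPM) with Ddx3y near 0 (0.34 CPM). Genotype fold changes are therefore given with and without those 2 libraries. This covers the members' median, and members called, with an unadjusted p under 0.05 or without overlap. Without those 2 libraries, wild type replicate 1 is the only paired-end library, and the layout term absorbs it. The genotype estimate then compares wild type replicate 2 alone, labelled female, with Atp7b-/- replicates 1 and 2, labelled male. In that fit genotype and labelled sex cannot be told apart, so only fold changes are given. Counts in the main results are given over all 6 libraries. Hepatocyte markers were abundant in every library, with a summed level of 76100 to 108000 CPM in wild type and 52800 to 72500 CPM in Atp7b-/- libraries, which did not overlap. None of the 7 hepatocyte markers tested was called. Alb, which made up most of the sum and overlapped between genotypes, stood at -0.72 (log2 fold change, edgeR adjusted p = 0.256). The median of the 7 was -0.165, with 5 negative and 2 positive, namely Apob (0.04) and Serpina1c (0.10). All 7 endothelial markers were negative and all 5 erythroid markers positive, none called, and mitochondrially encoded genes took 2.50% and 2.57% of single-end wild type counts against 4.15% and 4.09% in single-end Atp7b-/- libraries, and 7.74% against 8.14% in the paired-end pair. The median was -0.04 for 8 macrophage, 0.03 for 7 stellate and matrix and 0.74 for 5 cholangiocyte markers tested, none called. Bulk tissue cannot tell fewer hepatocytes from less RNA per hepatocyte, nor show that either occurred. The part of these differences in the results on the members was not tested. The 6 lymphocyte markers summed to 1.12 to 2.86 CPM and none passed the filter.

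In Atp7b-/- liver, 1 of the 54 genes was called lower, Prodh, which encodes the mitochondrial proline dehydrogenase, and none was called higher. A gene was called when edgeR's quasi-likelihood test, with read layout and genotype as terms, gave an adjusted p under 0.05 after Benjamini-Hochberg adjustment over all genes tested. Over all genes 2.49% were called, 0.585% lower and 1.90% higher, so that a count of 1 in 54 lay near the background. Unadjusted p under 0.05 was reached by 6 of the 54, against 14.5% of all genes. Acmsd, Gldc and Qdpr were higher among these 6, and Sds, Asl and Prodh lower. The log2 fold changes (Atp7b-/- minus wild type) were negative for 32 members and positive for 22, with a median of -0.04, against -0.009 over all genes. They lay between -0.5 and 0.5 for 46 of the 54 (85.2%, against 74.3% of all genes). The 95% interval of the log2 fold change lay wholly between -1 and 1 for 42 members (77.8%, against 56.2% of all genes), so that for these a change of 2-fold or more lay outside the interval. Without the 2 libraries that go against the labelled sex, where 1 wild type library carried the genotype estimate, the median log2 fold change was 0.12.

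**Figure D1:**
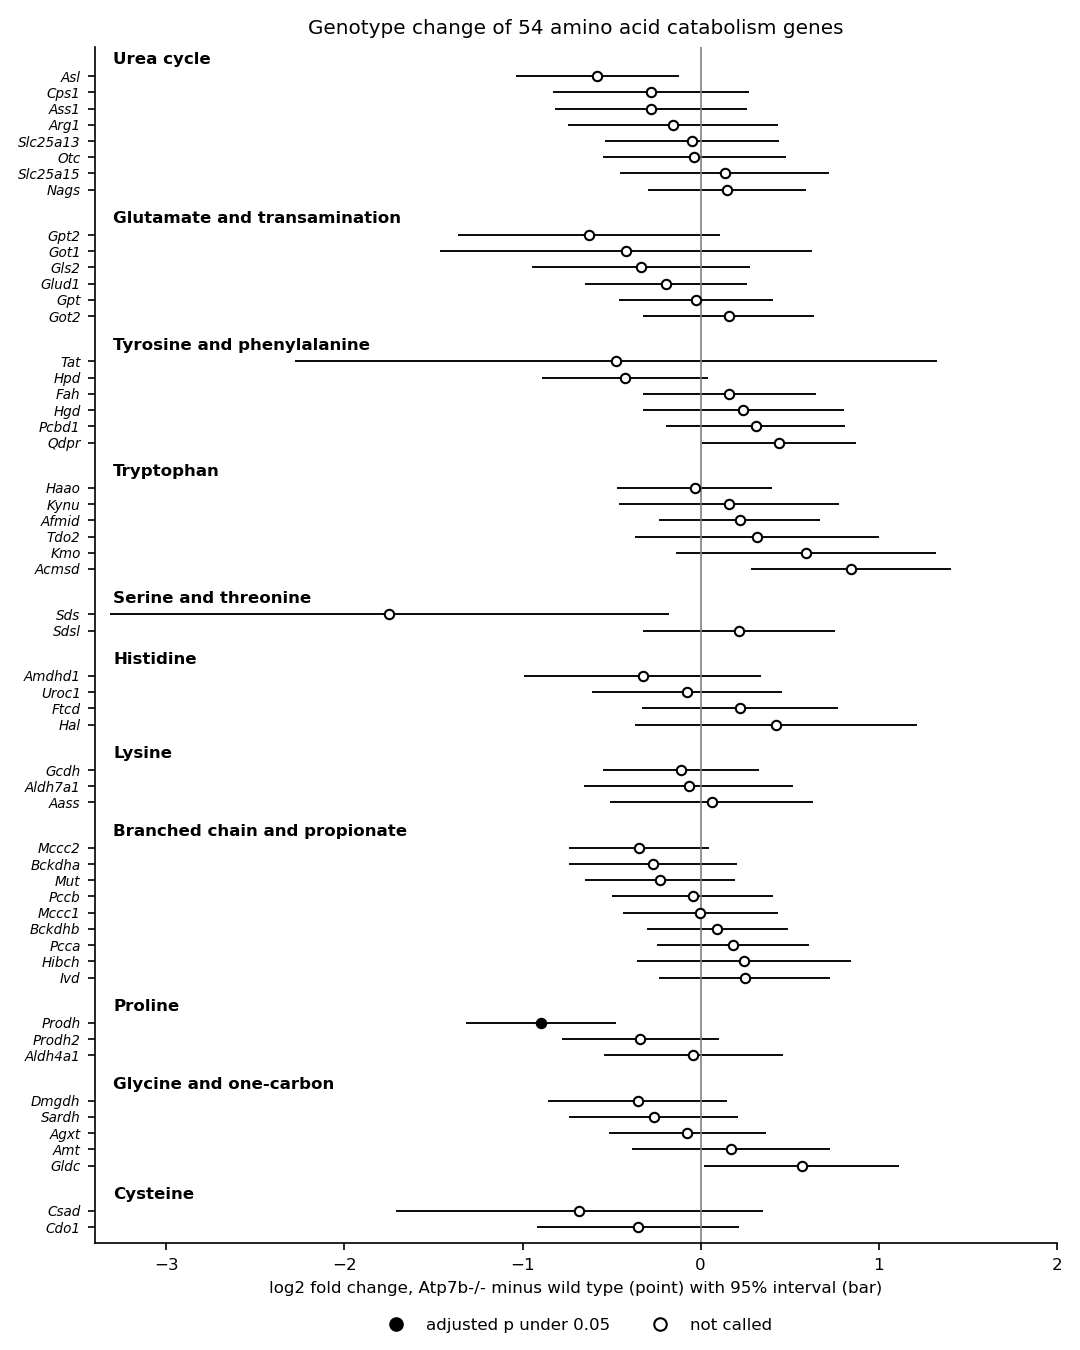
The log2 fold change (horizontal axis, Atp7b-/- minus wild type) of the 54 measured genes by amino acid, where points are edgeR estimates with layout as a term and bars their 95% intervals. Prodh, at -0.90, is the only filled (called) point, Sds has the lowest estimate at -1.75, and most intervals cross 0.

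The levels of the 3 wild type and 3 Atp7b-/- libraries did not overlap for 2 members, Sds and Mccc2, both lower in every Atp7b-/- library. Over all genes 8.51% did not overlap. When the genotypes were compared only within each layout (2 against 2 single-end, 1 against 1 paired-end), 12 members were apart in the same direction in both, against 29.2% of all genes. Of these, Asl, Glud1, Hpd, Sds, Mccc2, Prodh and Prodh2 were lower in Atp7b-/- liver, and Qdpr, Pcbd1, Acmsd, Bckdhb and Gldc higher.

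Proline is oxidised by Prodh, hydroxyproline by Prodh2, and both routes pass through Aldh4a1 to glutamate or its hydroxylated form. Prodh (ENSMUSG00000003526, chr16:18060357-18090203, minus strand, GRCm38) stood at 152, 330 and 402 CPM in wild type replicates 1 to 3 and at 196.5, 205 and 78.2 CPM in Atp7b-/- replicates 1 to 3. Within each layout the Atp7b-/- libraries were lower, but the paired-end wild type library lay below both single-end Atp7b-/- libraries, so that the groups overlapped. With layout as a term, Prodh fell 1.86-fold, or by 0.90 on the log2 scale (SE 0.19, 95% interval -1.32 to -0.47, adjusted p = 0.0434). The difference had nearly the same size in the paired-end pair (-0.95 in log2 CPM) and in the single-end libraries (-0.86). Its call was lost without any 1 of the 6 libraries, with an adjusted p of 0.189, 0.0504 and 0.098 without wild type replicates 1, 2 and 3 and of 0.2, 0.138 and 0.196 without Atp7b-/- replicates 1, 2 and 3. The log2 fold change stayed between -0.98 and -0.82 in those fits. Leaving out wild type replicate 1 or Atp7b-/- replicate 3 leaves 1 paired-end library, which the layout term absorbs. Those fits and the fit of single-end libraries alone are therefore the same genotype comparison. The call was also lost in single-end libraries alone (adjusted p = 0.187), when layout was not in the model (0.9999) and when labelled sex replaced it (1). Without both libraries that go against the labelled sex the log2 fold change was -0.72.

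The hydroxyproline enzyme Prodh2 stood at 129, 355 and 401 CPM in wild type replicates 1 to 3 and at 284, 259 and 124 CPM in Atp7b-/- replicates 1 to 3. Its layouts were ordered as for Prodh, with the lowest levels in the 2 paired-end libraries, and the paired-end pair differed little between genotypes (-0.06). Its log2 fold change was -0.34 (SE 0.20, adjusted p = 0.483). Aldh4a1, whose exons share 1595 bases with those of Gm21969 on the same strand, was at -0.04 (SE 0.22, adjusted p = 0.961).

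Promoter sequence is shown for Prodh, the called member, and for Mccc2, the member with non-overlapping levels that has a window in the RefSeq table. Each window runs from 250 bases before to 50 bases after the RefSeq start on GRCm38.p6, in the gene's own 5′ to 3′ direction, and capitals mark matches to the motifs searched. The windows are chr16:18089141-18089440 (Prodh) and chr13:100015590-100015889 (Mccc2), both on the minus strand.
Prodh: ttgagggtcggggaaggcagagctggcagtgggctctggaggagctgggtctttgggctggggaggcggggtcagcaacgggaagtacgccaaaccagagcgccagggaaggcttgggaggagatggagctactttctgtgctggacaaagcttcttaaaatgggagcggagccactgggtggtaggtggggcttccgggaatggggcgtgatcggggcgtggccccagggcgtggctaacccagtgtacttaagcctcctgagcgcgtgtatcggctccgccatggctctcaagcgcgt
Mccc2: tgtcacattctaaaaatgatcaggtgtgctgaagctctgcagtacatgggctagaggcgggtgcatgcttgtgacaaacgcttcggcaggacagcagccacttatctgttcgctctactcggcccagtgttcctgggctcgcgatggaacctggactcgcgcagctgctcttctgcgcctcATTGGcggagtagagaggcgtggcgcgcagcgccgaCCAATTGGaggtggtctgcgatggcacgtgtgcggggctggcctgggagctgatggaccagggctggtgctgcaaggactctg
The Prodh window was 63% G and C with 17 CpG sites and no match, and the Mccc2 window 60.3% with 19 CpG sites and 3 matches to the CCAAT box. In the Mccc2 window 2 of the 3 matches overlap, on opposite strands.

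The motifs were searched as plain letters on both strands: the half-site TGACG of the cyclic AMP response element (CRE), the full CRE TGACGTCA, the CCAAT box CCAAT and the TATA box TATAAA, where every full CRE also holds the half-site. Windows of the RefSeq table matched 43 of the 54 members (47 windows, Mut under its newer symbol). Shares of members count genes with a match in any of their windows, and shares of all windows count single windows, so the 2 are not in the same unit. The half-site was found for 7 of the 43 (16.3%, against 20.8% of all 32851 windows). No member window held the full CRE, which 1.79% of all windows held. The CCAAT box was found for 20 members (46.5%, against 37.4%) and the TATA box for 6 (14%, against 13.6%), namely Ftcd, Got2, Hal, Hgd, Pcbd1 and Tdo2. Member windows had a median G and C content of 57% and a median of 10 CpG sites, against 52.7% and 7 over all windows. A match is a run of letters, not a bound site, and the absence of one says nothing of the factor.

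The urea cycle was among the most abundant of these pathways, and none of its 8 measured genes was called. Summed over Cps1, Otc, Ass1, Asl, Arg1, Nags and the mitochondrial carriers Slc25a15 (ornithine) and Slc25a13 (aspartate and glutamate), the level in CPM was 7878 ± 2237 in wild type and 6475 ± 406 in Atp7b-/- liver (mean ± SD, n = 3 each). The wild type spread came mostly from the paired-end library, at 10460 CPM, against 6550 and 6623 CPM in the single-end wild type libraries and 6029 to 6822 CPM in the Atp7b-/- libraries. Asl (ENSMUSG00000025533, chr5:130011258-130029247, minus strand), which splits argininosuccinate into arginine and fumarate, was the only one with an unadjusted p under 0.05. It stood at 421, 518 and 630 CPM in wild type replicates 1 to 3 and at 394, 443 and 237 CPM in Atp7b-/- replicates 1 to 3. Asl was lower in the Atp7b-/- libraries within each layout, while Atp7b-/- replicate 2 lay above the paired-end wild type library. Its log2 fold change was -0.58 (SE 0.20, 95% interval -1.04 to -0.12, edgeR adjusted p = 0.223), and -0.31 without the 2 libraries that go against the labelled sex.

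Cps1, the mitochondrial entry enzyme that makes carbamoyl phosphate, was at 5351, 3548 and 2829 CPM in wild type and 3296, 2905 and 3166 CPM in Atp7b-/- replicates 1 to 3. Its high value was the paired-end wild type library, and the other 5 libraries lay close together, with the genotypes overlapping. The log2 fold change was -0.28 for Cps1 (SE 0.24, adjusted p = 0.664) and -0.28 for Ass1, which joins citrulline to aspartate (SE 0.24, adjusted p = 0.659). Arg1, which releases urea, was at -0.15 (SE 0.26), and Otc, which makes citrulline, at -0.04 (SE 0.23). The remaining members were Nags, which makes the activator of Cps1, at 0.15 (SE 0.20), Slc25a15 at 0.14 (SE 0.26) and Slc25a13 at -0.05 (SE 0.21). The exons of Nags overlap those of Gm11586 on the other strand over 443 bases, and since the strand setting of the counting is not given, the reads of the 2 genes cannot be told apart there.

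Around the cycle, 14 of 17 listed neighbours in urea, glutamate, glutamine, proline and asparagine metabolism were tested, and 1 of them was called. Got1l1, a gene named for its likeness to Got1, was called higher (edgeR log2 fold change 6.48, adjusted p = 0.00102), from 4 counts in wild type replicate 1 and 0 in the other 2 to 106, 63 and 289 counts in Atp7b-/- replicates 1 to 3. With so few wild type counts the size of that change depends on the model. Asns, the asparagine synthetase, was at 20.7, 1.27 and 3.52 CPM in wild type and 78.3, 37.9 and 59.7 CPM in Atp7b-/- replicates 1 to 3. Asns was higher in every Atp7b-/- library, but did not pass the test (log2 fold change 3.46, SE 0.94, adjusted p = 0.215). Glul, the glutamine synthetase of pericentral hepatocytes, was at -0.54 (SE 0.22, adjusted p = 0.299).

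Glutamate handling and transamination held 6 members, none called and none with an unadjusted p under 0.05. Gpt2, the mitochondrial alanine transaminase, had the largest fold change among them, at 331, 258.5 and 512 CPM in wild type and 217, 364.5 and 159 CPM in Atp7b-/- replicates 1 to 3 (log2 fold change -0.62, SE 0.32, adjusted p = 0.434). The genotypes of Gpt2 overlapped, and the value turned to 0.17 without the 2 libraries that go against the labelled sex. Got1, the cytosolic aspartate transaminase, was at 273, 251 and 218 CPM in wild type and 344, 200.5 and 81.3 CPM in Atp7b-/- replicates 1 to 3. Atp7b-/- replicate 1 was the highest and replicate 3 the lowest of the 6 libraries for Got1. Its log2 fold change was -0.42 (SE 0.44, edgeR adjusted p = 0.735). Without Atp7b-/- replicate 3, which leaves the genotype comparison to the single-end libraries, it was 0.22. Glud1, the glutamate dehydrogenase, was lower in the Atp7b-/- libraries within each layout but by only -0.19 (SE 0.20). Gls2, the liver glutaminase, was at -0.34 (SE 0.27). The cytosolic alanine transaminase Gpt and the mitochondrial aspartate transaminase Got2 were at -0.02 and 0.16.

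Tyrosine breakdown begins with Tat, whose product Hpd converts to homogentisate, and ends with Hgd and Fah. Qdpr and Pcbd1 regenerate tetrahydrobiopterin, a cofactor of aromatic amino acid metabolism. Qdpr (ENSMUSG00000015806, chr5:45434021-45450236, minus strand) stood at 315, 342 and 398 CPM in wild type and 551, 507 and 385 CPM in Atp7b-/- replicates 1 to 3. The 2 single-end Atp7b-/- libraries were the highest of all, and Atp7b-/- replicate 3 lay just under wild type replicate 3. Qdpr had a log2 fold change of 0.44 (SE 0.19, 95% interval 0.007 to 0.88, edgeR adjusted p = 0.334), and 0.63 without the 2 libraries that go against the labelled sex. Pcbd1 was at 0.31 (SE 0.22, adjusted p = 0.579) and was higher in the Atp7b-/- libraries within each layout, by 0.003 in log2 CPM in the paired-end pair.

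Tat, the tyrosine transaminase, had the widest interval of all members. It stood at 2247, 1295 and 2171 CPM in wild type replicates 1 to 3 and at 970, 3168 and 542.5 CPM in Atp7b-/- replicates 1 to 3. Atp7b-/- replicate 2 was the highest and replicate 3 the lowest of the 6 libraries. Tat had a log2 fold change of -0.48 (SE 0.71, 95% interval -2.28 to 1.33, edgeR adjusted p = 0.827). The value changed sign without Atp7b-/- replicate 3 (0.28) or wild type replicate 1 (0.26). Both fits leave the genotype comparison to the same single-end libraries. Hpd was at -0.42 (SE 0.21, adjusted p = 0.397), lower in the Atp7b-/- libraries within each layout. Hgd and Fah were at 0.24 (SE 0.25) and 0.16 (SE 0.22). Of the other genes of this route, 7 of 7 listed were tested and none was called. Those with the smallest p were Gch1, the first enzyme of tetrahydrobiopterin synthesis, at -0.60 (adjusted p = 0.257), Mif at -0.69 (adjusted p = 0.451) and Gchfr at 0.26 (adjusted p = 0.615).

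Tryptophan breakdown runs from Tdo2 through Afmid, Kmo, Kynu and Haao towards NAD, and Acmsd diverts the pathway's intermediate away from NAD synthesis. Of the 6 members none was called, and 5 had positive log2 fold changes. Acmsd (ENSMUSG00000026348, chr1:127729413-127767978, plus strand) had the largest positive fold change of all members and the lowest mean level per length in wild type liver. It stood at 27.4, 5.27 and 4.45 CPM in wild type and 11.9, 7.58 and 41.3 CPM in Atp7b-/- replicates 1 to 3. Both paired-end libraries were far above the single-end ones, and within each layout every Atp7b-/- library was higher. For Acmsd the log2 fold change was 0.85 (SE 0.25, 95% interval 0.28 to 1.41, adjusted p = 0.139), a 1.80-fold difference. It was 0.91 without the 2 libraries that go against the labelled sex, and 94 exon bases of Acmsd overlap 2900009J06Rik on the other strand.

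Kmo, the kynurenine monooxygenase, was at 426.5, 66.9 and 70.4 CPM in wild type and 167.5, 125 and 319 CPM in Atp7b-/- replicates 1 to 3. The single-end Atp7b-/- libraries lay above the single-end wild type libraries, and the paired-end pair was ordered the other way. The estimate for Kmo was 0.59 on the log2 scale (SE 0.32, adjusted p = 0.457) over both layouts. Tdo2, the first and rate-setting enzyme, showed the same order, with 3119, 450 and 719 CPM in wild type and 990.5, 908 and 2254 CPM in Atp7b-/- replicates 1 to 3 (log2 fold change 0.31, SE 0.30, adjusted p = 0.697). Afmid, whose exons share 1566 bases with Gm20708 on the same strand, was at 0.22, Kynu at 0.16 and Haao at -0.03. Of 9 other listed genes of the route 8 were tested and none was called. Kyat1, a kynurenine transaminase, was at 0.61 (adjusted p = 0.219), Naprt at -0.35 (adjusted p = 0.47) and Qprt, the enzyme that makes nicotinate mononucleotide, at 0.34 (adjusted p = 0.494).

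**Figure D2:**
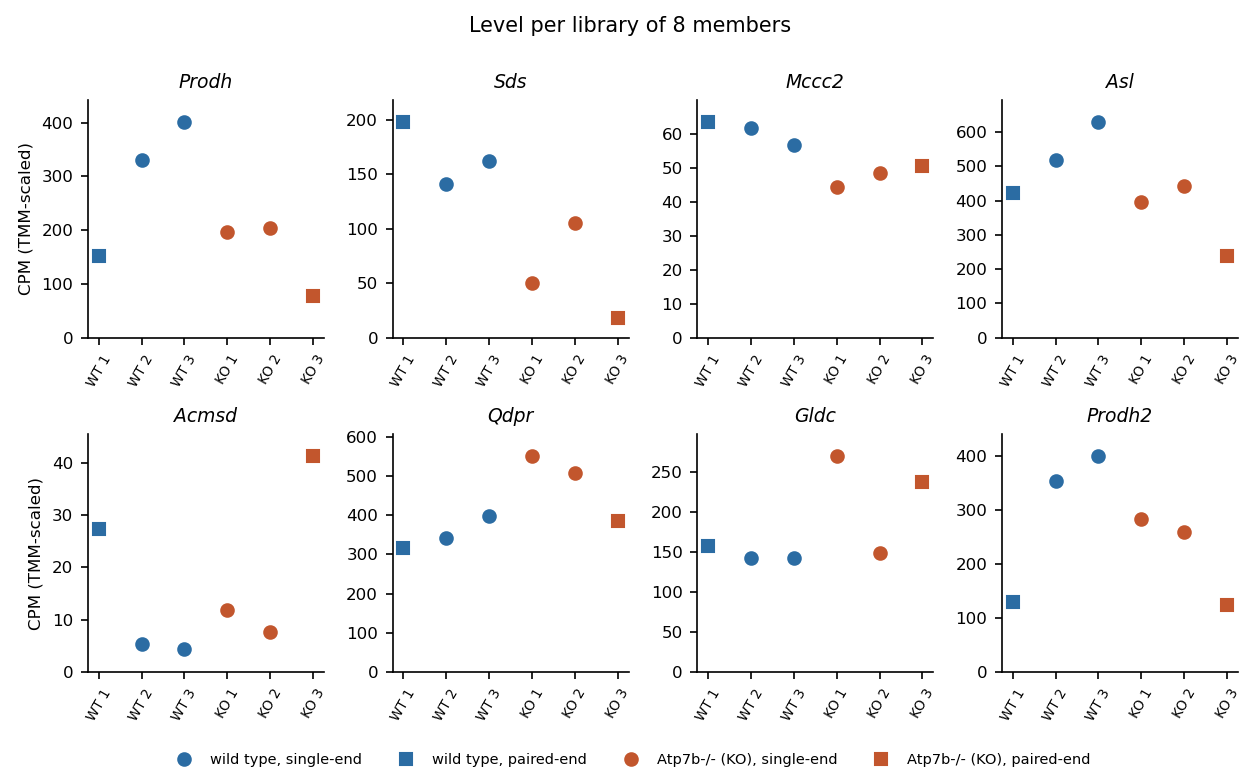
Level in CPM (vertical axis, from 0) of 8 members in each of the 6 libraries, with wild type in blue, Atp7b-/- in orange, single-end libraries as circles and paired-end libraries as squares. Sds and Mccc2 are the panels without overlap between genotypes. In every panel but Gldc both squares lie outside the range of the circles of their genotype, as in Prodh, Prodh2, Acmsd and Asl.

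The serine and threonine dehydratase Sds had the most negative fold change of all members. Sds (ENSMUSG00000029597, chr5:120476526-120483932, plus strand), which turns serine into pyruvate for glucose synthesis, stood at 198, 141 and 163 CPM in wild type replicates 1 to 3 and at 49.9, 105 and 18.6 CPM in Atp7b-/- replicates 1 to 3. Every Atp7b-/- library lay below every wild type library, and the Atp7b-/- libraries themselves differed widely. The mean level in CPM was 168 ± 28.8 in wild type and 57.9 ± 44.0 in Atp7b-/- liver (mean ± SD, n = 3 each). The log2 fold change was -1.75 (SE 0.62, 95% interval -3.32 to -0.18), a 3.36-fold difference that did not pass the test (adjusted p = 0.296). Leaving out Atp7b-/- replicate 2 gave a call (-2.33, adjusted p = 0.0453), as did DESeq2 (-1.75, adjusted p = 0.0132). The estimate was -0.96 without Atp7b-/- replicate 3 and -0.97 without wild type replicate 1 (edgeR adjusted p = 0.322 and 0.303). Both of these fits rest, for genotype, on the same single-end libraries. Without the 2 libraries that go against the labelled sex the estimate was -0.87. The related Sdsl, whose gene lies next to Sds on chromosome 5, was at 0.21 (SE 0.24, adjusted p = 0.748). The exons of Sds overlap those of Plbd2 over 360 bases and those of Gm15690 over 141 bases, both on the other strand.

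Histidine breakdown (Hal, Uroc1, Amdhd1 and Ftcd in order of the route) and lysine breakdown (Aass, Aldh7a1 and Gcdh) held 7 members, none called and none with an unadjusted p under 0.05. Hal, the histidine ammonia lyase, was at 379, 388 and 211 CPM in wild type and 605, 273.5 and 427 CPM in Atp7b-/- replicates 1 to 3, with overlapping genotypes (log2 fold change 0.43, SE 0.34, adjusted p = 0.638). Amdhd1 was at -0.33 (SE 0.29), Ftcd, the folate-linked last enzyme, at 0.22 (SE 0.24) and Uroc1 at -0.07 (SE 0.24). The lysine enzymes were at -0.11 (Gcdh, SE 0.19), -0.07 (Aldh7a1, SE 0.26) and 0.06 (Aass, SE 0.25). The 5 other listed lysine genes were all tested and none was called. Dhtkd1, of the alpha-ketoadipate dehydrogenase, was at -0.35 (adjusted p = 0.429), Dlst at 0.32 (adjusted p = 0.593) and Ogdh at 0.04 (adjusted p = 0.957).

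Branched-chain amino acids and propionate are broken down in mitochondria, and the 9 members of these routes all had log2 fold changes between -0.35 and 0.25. Mccc2 (ENSMUSG00000021646, chr13:99948530-100015639, minus strand), the beta subunit of the leucine enzyme methylcrotonyl-CoA carboxylase, stood at 63.5, 61.7 and 56.7 CPM in wild type and 44.2, 48.5 and 50.5 CPM in Atp7b-/- replicates 1 to 3. Every Atp7b-/- library lay below every wild type library, by a similar amount in the paired-end pair (-0.33 in log2 CPM) and the single-end libraries (-0.35). The means were 60.6 ± 3.50 and 47.7 ± 3.21 CPM (mean ± SD, n = 3 each). For Mccc2 the log2 fold change was -0.35 (SE 0.17, 95% interval -0.74 to 0.05, edgeR adjusted p = 0.413), and -0.41 without the 2 libraries that go against the labelled sex. Mccc1, the alpha subunit of the same enzyme, was at -0.002 (SE 0.19), with 45.4 to 65.5 CPM in wild type and 52.6 to 66.9 CPM in Atp7b-/- liver. The difference between the 2 subunits was not tested.

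The first committed step of the branched-chain route is the dehydrogenase of Bckdha and Bckdhb, at -0.27 (SE 0.21) and 0.09 (SE 0.17). Bckdha shares 1171 exon bases with B3gnt8 on the other strand. Ivd, the isovaleryl-CoA dehydrogenase of leucine, was at 0.25 (SE 0.21), and Hibch, of valine, at 0.24 (SE 0.27). Propionyl-CoA carboxylase (Pcca and Pccb) was at 0.18 (SE 0.19) and -0.05 (SE 0.20), and the methylmalonyl-CoA mutase Mut at -0.23 (SE 0.19). Of 18 other listed genes of these routes 17 were tested and none was called. Dbt, the transacylase of the same dehydrogenase complex, was at 0.53 (adjusted p = 0.281), Acad8 at 0.24 (adjusted p = 0.638) and Mmab at 0.20 (adjusted p = 0.698).

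Glycine and methyl-group breakdown held 5 members, none called. Gldc (ENSMUSG00000024827, chr19:30098447-30175429, minus strand), which decarboxylates glycine in the glycine cleavage system, stood at 158, 142 and 142 CPM in wild type and 270.0, 148 and 237.5 CPM in Atp7b-/- replicates 1 to 3. The wild type libraries lay close together, 2 Atp7b-/- libraries were well above them, and Atp7b-/- replicate 2 fell between the wild type values. Gldc had a log2 fold change of 0.57 (SE 0.24, 95% interval 0.02 to 1.11, edgeR adjusted p = 0.323). The value was 0.30 without Atp7b-/- replicate 1, and 0.56 without the 2 libraries that go against the labelled sex. Amt, its aminomethyltransferase partner, was at 0.17 (SE 0.25). Sardh and Dmgdh, which oxidise sarcosine and dimethylglycine, were at -0.26 (SE 0.21) and -0.35 (SE 0.22), and Agxt, which detoxifies glyoxylate, at -0.07 (SE 0.20).

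Of 16 other listed genes of glycine, serine and threonine metabolism 14 were tested and none was called. Gamt, which makes creatine, was at -0.79 (adjusted p = 0.0845), Agxt2 at 0.73 (adjusted p = 0.133) and the serine racemase Srr at 0.58 (adjusted p = 0.173). In cysteine breakdown, Csad, which makes hypotaurine, was at 335, 85.4 and 300.5 CPM in wild type and 140, 107 and 199 CPM in Atp7b-/- replicates 1 to 3. The genotypes of Csad overlapped because wild type replicate 2 was the lowest library (log2 fold change -0.68, SE 0.43, adjusted p = 0.54). The value turned to 0.53 without the 2 libraries that go against the labelled sex. Cdo1, the cysteine dioxygenase, was at -0.35 (SE 0.25, adjusted p = 0.579). Of 9 other listed genes of cysteine metabolism, 1 of which is the member Got1, 8 were tested and none was called. Cth, the enzyme that makes cysteine, was at 0.70 (adjusted p = 0.317), Ethe1 at 0.63 (adjusted p = 0.328) and Cbs at 0.31 (adjusted p = 0.609).

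Levels can be compared between genes only per transcript length, as reads per kilobase of exon and library size (RPKM, here TMM-scaled CPM per kilobase). In wild type liver the mean RPKM of 3 libraries was highest for Hpd (1216), Tat (792), Cps1 (704), Cdo1 (590), Arg1 (541) and Ass1 (530). It was lowest for Acmsd (4.37), Mccc1 (5.29), Hibch (11.9) and Sdsl (12.6). The order held only in part within each layout. In the paired-end wild type library Cps1 (963 RPKM), Tat (934), Cdo1 (809) and Tdo2 (804) lay above Hpd (704), and Sdsl (5.16) and Mccc1 (5.98) below Acmsd (9.67). In the single-end wild type libraries Hpd (1473) was highest and Acmsd (1.72) lowest. The exons of Aldh7a1, Csad, Dmgdh, Gls2, Mccc1, Mut, Pcca and Sardh each overlap another gene on the other strand over 94 to 300 bases, so that their reads there cannot be assigned. All members together made up 2.70% to 3.07% of the scaled counts in wild type and 2.16% to 2.77% in Atp7b-/- libraries, and these ranges overlapped.

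**Figure D3:**
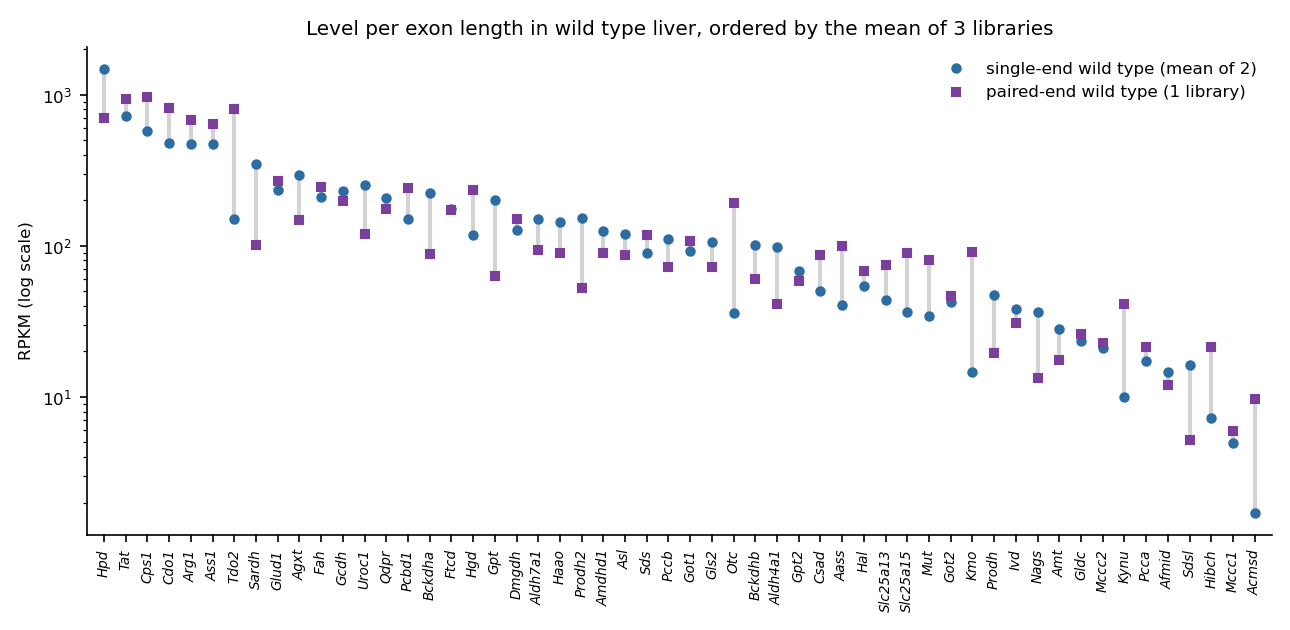
Wild type level per exon length (RPKM, logarithmic vertical axis) of the 54 members, ordered by the mean of the 3 libraries, with the mean of the 2 single-end libraries as circles and the paired-end library as squares joined by a bar. By the mean of all 3 libraries Hpd leads at 1216 and Acmsd is last at 4.37, but the layouts differ in this order, and they are farthest apart for Kmo, Acmsd, Tdo2, Otc and Kynu.

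Read layout separated the libraries of many members by more than genotype did. The term for layout was called for 25 of the 54 members (46.3%), against 52.8% of all genes, with 9 higher and 16 lower in the paired-end libraries. Otc, on the X chromosome, was at 808 CPM in the paired-end wild type library and 147 and 157 CPM in the single-end ones, and at 533 against 176 and 184 CPM in Atp7b-/- liver. Its layout term was 2.01 on the log2 scale (adjusted p = 0.000273). The layout term was 2.27 for Acmsd, 1.94 for Kmo and 1.87 for Tdo2, and -2.04 for Sdsl, -1.57 for Gpt and -1.57 for Sardh. Adipocyte transcripts moved with layout: Cfd had 325 and 315 counts in the paired-end libraries and 0 in each single-end library, and Adipoq had 169 and 137 counts against at most 1. Their part in the members' layout differences was not tested. Read layout, the later sequencing run and the tissue samples behind it cannot be told apart.

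The genotype difference was also more often negative in the paired-end pair than in the single-end libraries. In the paired-end pair 39 of the 54 members were lower in Atp7b-/- liver (72.2%, against 50.6% of all genes), with a median difference of -0.22 in log2 CPM. In the single-end libraries 24 were lower (44.4%, against 49.7%), with a median of 0.03. The paired-end pair is 1 library against 1, with no replicate check. The 2 directions matched for 31 members (57.4%, against 58.1% of all genes). The term for a genotype change that differs between layouts was negative for 40 members, with a median of -0.32 against -0.03 over all genes, and was called for none of them. Over all genes it was called for 0.0154%. An unadjusted p under 0.05 for this term was reached by 4 members, namely Sds (-2.44), Got1 (-1.96), Kmo (-1.51) and Slc25a15 (-1.09), with edgeR adjusted p-values of 0.741, 0.829, 0.9 and 0.987. With this term the model passes through both paired-end libraries, and its error comes from the single-end libraries alone. In the single-end libraries wild type was labelled female and Atp7b-/- male, and in the paired-end pair the reverse. The term is therefore also the contrast of labelled sex, and a dependence on layout and one on labelled sex cannot be told apart.

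**Figure D4:**
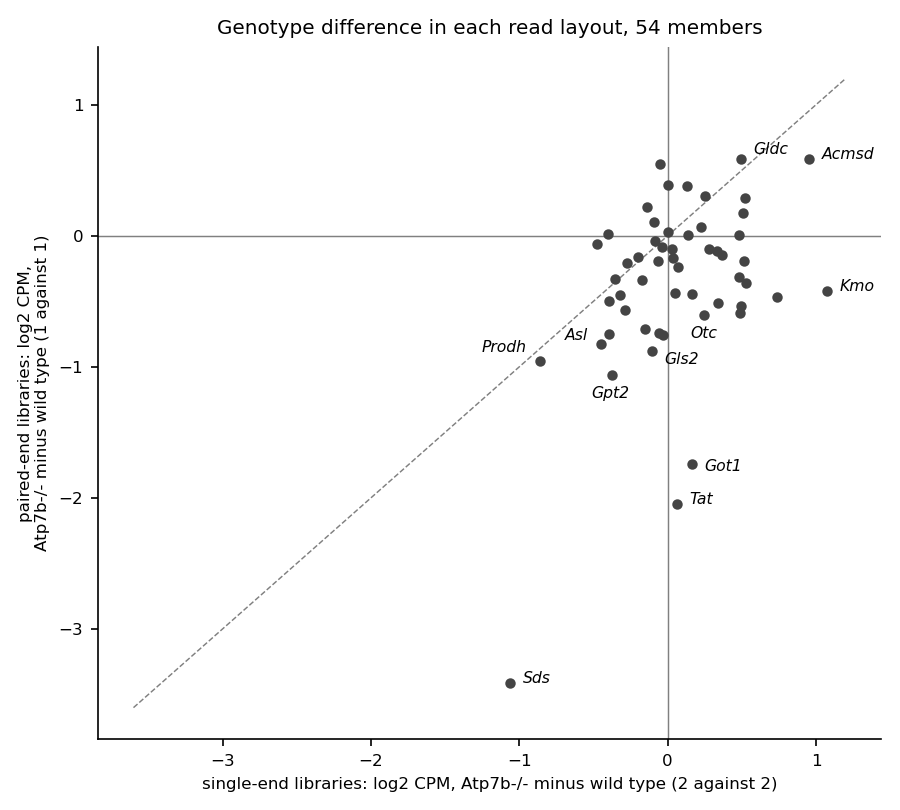
Genotype difference of the 54 members in log2 CPM (Atp7b-/- minus wild type), with the 2 against 2 single-end libraries on the horizontal axis and the 1 against 1 paired-end libraries on the vertical axis, where the dashed line marks equal differences. Prodh lies near the line (-0.86 and -0.95), Sds, Got1 and Tat lie far below it, and 39 points lie below 0 on the vertical axis.

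Atp7b-/- replicate 3, a paired-end library, held the lowest level of the members named here, some of them known to follow hormones, feeding and time of day. Several, but not all, genes of the circadian clock stood apart in the same library. Asl, Hpd, Gls2, Prodh and Agxt were also lowest there, while Acmsd and Mccc1 were highest. A lowest level in that library was thus not particular to the members set beside the clock genes below. The share of all genes lowest there was not counted. The layout term was negative for Prodh (-1.32), Hpd (-1.12), Agxt (-0.97), Gls2 (-0.93) and Asl (-0.63), which are lower in paired-end libraries. Agxt was at 244 CPM in Atp7b-/- replicate 3 and at 250 CPM in the paired-end wild type library. The part of layout in these low levels was not tested. Tat, Sds, Got1 and Gpt2 were each at their lowest there, as was Pck1, the gatekeeper enzyme of glucose synthesis (324 CPM, against 1464 to 3828 CPM in the other 5 libraries). Dbp, a clock output gene, was at 0.999 CPM there and at 48.6 to 320 CPM elsewhere, and Per1 at 1.76 CPM and 28.8 to 118 CPM. Arntl, the clock activator that peaks when Dbp is low, was at 43.2 CPM in that library and at 0.281 to 10.8 CPM in the others. Per2 (19.4 CPM) lay close to Atp7b-/- replicate 1 (19.9 CPM), and Cry1 (22.8 CPM) close to wild type replicate 3 (21.7 CPM). For Dbp and Per1 the paired-end wild type library was also the lowest wild type library, at 48.6 and 28.8 CPM. Of 12 clock genes tested 1 was called, Hlf (log2 fold change -0.92, adjusted p = 0.0323), and 10 had negative values, with a median of -0.98. Of 9 genes of the fasting and glucagon response none was called, with a median of -0.32. Not all genes of this kind were low in Atp7b-/- replicate 3: Pdk4, of the same list, was highest there (36.1 CPM, against 1.48 to 6.22 CPM elsewhere), and Tdo2 was second highest (2254 CPM). The hour at which tissue was collected is given neither in the labels nor in the table, and the part of the clock genes' difference in the members' values was not tested. Without that library the log2 fold change was -0.85 for Prodh (edgeR adjusted p = 0.196) and -0.34 for Mccc2 (edgeR adjusted p = 0.542), neither called. That fit rests, for genotype, on the single-end libraries alone.

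**Figure D5:**
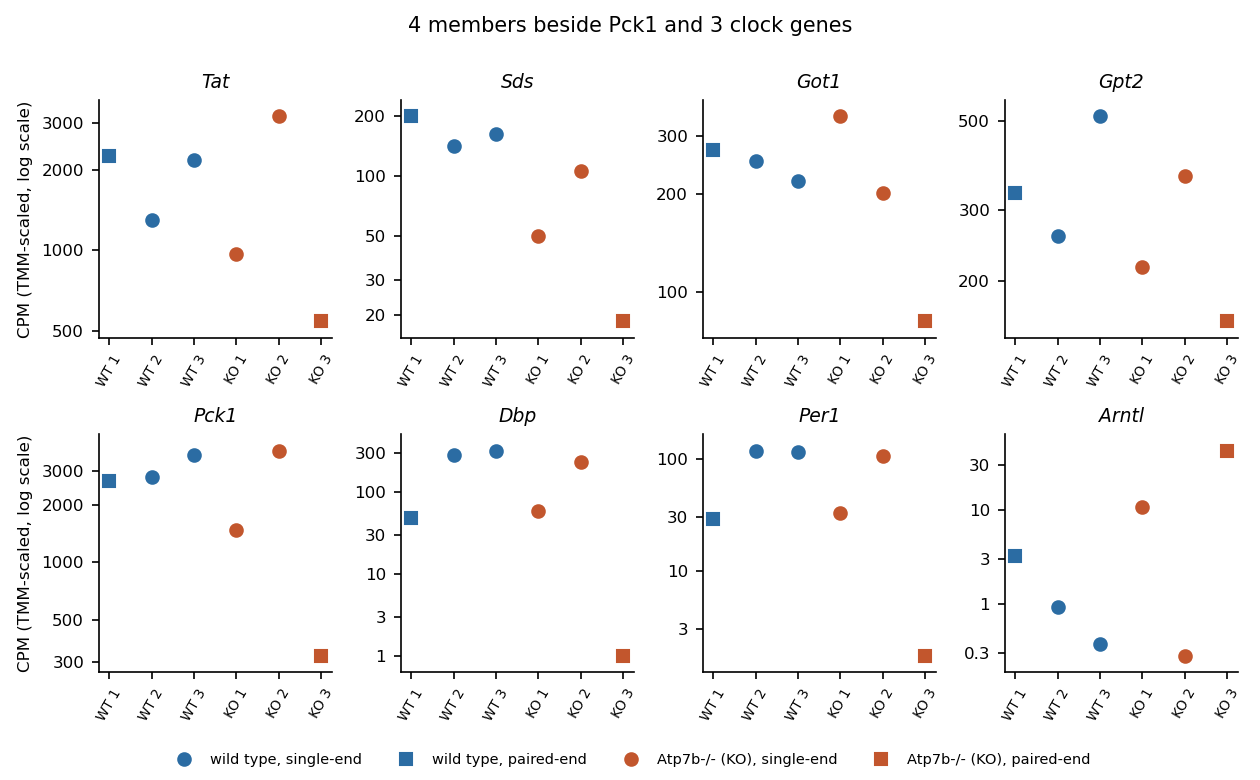
Level in CPM (logarithmic vertical axes) of the members Tat, Sds, Got1 and Gpt2 and of Pck1 and the clock genes Dbp, Per1 and Arntl in each library, marked as in the plot of 8 members. Atp7b-/- replicate 3 is the lowest library for the 4 members, Pck1, Dbp (0.999 CPM) and Per1 (1.76 CPM) and the highest for Arntl (43.2 CPM).

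Genes that act on or beside these pathways were described from further lists. Over the 7 lists of other pathway genes together, 72 of 80 were tested and 1 was called, Got1l1, with a median log2 fold change of 0.005. Among 15 regulators of amino acid catabolism none was called, although 14 were negative, with a median of -0.37 against -0.009 over all genes. Cebpa, a transcription factor of the hepatocyte, was at 325, 1630 and 3028 CPM in wild type and 908, 1428 and 188 CPM in Atp7b-/- replicates 1 to 3, with overlapping genotypes (log2 fold change -0.93, adjusted p = 0.166). Sirt5, the mitochondrial deacylase that acts on Cps1, was at 0.78 (adjusted p = 0.167) and Ppargc1a at -0.88 (adjusted p = 0.267). Of 16 amino acid transporters tested none was called, with a median of -0.32. Slc1a4 was at 1.21 (adjusted p = 0.123), Slc7a1, a carrier of arginine and lysine, at 1.72 (adjusted p = 0.152) and Slc38a3, the glutamine carrier of the hepatocyte, at -0.75 (adjusted p = 0.225).

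Urea synthesis is periportal and glutamine synthesis pericentral, so that markers of both zones were set beside the members. Of 8 periportal markers 1 was called, Cdh1, higher in Atp7b-/- liver (log2 fold change 1.13, edgeR adjusted p = 0.0219), and the median was -0.32. Cdh1 went against most of its list, in which 5 were negative and 3 positive. Among the negative were Cyp2f2 (-0.51, without overlap between genotypes), Hsd17b6 (-0.56) and Pck1 (-1.14). The other positive markers were Aldh1b1 (0.68) and Sox9 (1.365), which is also among the cholangiocyte markers. Of 12 pericentral markers tested none was called and 11 were negative, with a median of -0.44. The median of the urea cycle members was -0.10. The part of any zonal difference in the members' values was not tested.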

How the data were processed

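The values deposited by the authors are raw counts, 1 column for each of the 6 libraries and 1 row per Ensembl gene. STAR 2.4, featureCounts and edgeR 3.8 and build GRCm38 are named in the submitters' processing notes. No source used here gives the strand setting, the annotation release or whether a read pair counts as 1, so overlapping genes and totals across layouts are uncertain. GENCODE symbols named 40254 of 41388 identifiers. The test was run in R 4.3.3 and edgeR 4.0.16, with TMM scaling, filterByExpr at a minimum count of 10, and a robust quasi-likelihood model of layout and genotype. P-values were adjusted by Benjamini-Hochberg over 12988 genes. The SE was taken from the F statistic (absolute log2 fold change over root F), and log2 CPM used a prior count of 2. Alternatives used DESeq2 1.42.0, limma 3.58.1 (voom) and the other settings named at the end. Full values are given for members called, with an unadjusted p under 0.05, without overlap or among the 3 largest fold changes of their amino acid group, and for the 3 smallest p of each further list, not all of which are printed. The members and lists were chosen with earlier results of these data known.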

Additional observations from a re-analysis of the deposited data

How the results depend on the processing

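Of 864 values (54 members under 16 other settings) 777 kept direction and side of the threshold, 10 lost a call (all of Prodh), 3 gained one (Sds and Acmsd) and 74 changed sign, none of which was called. With no layout term no member and no gene was called (0 of each, 1 and 545 at an unadjusted p under 0.05), likewise with labelled sex in place of layout (0 of each, 1 and 381). Single-end libraries alone gave 0 members and 126 genes (5 and 1730 unadjusted), and DESeq2 2 members and 728 genes. With no filter on low counts 1 member, Acmsd, was called higher (adjusted p = 0.0284), the genotype change differed between layouts for 3 members, and 1116 genes were called. A minimum count of 50 gave 215 genes. DESeq2 called Prodh and Sds. Leaving out 1 library in turn left 0 to 1 members called lower (Sds, without Atp7b-/- replicate 2) and 119 to 323 genes. The count of genes was 131 if wild type replicate 1 was left out, 208 for replicate 1 of Atp7b-/- liver and 119 for its replicate 3. The fits without wild type replicate 1 or Atp7b-/- replicate 3 make the same genotype comparison as single-end libraries alone. Leaving out both libraries that go against the labelled sex was an alternative chosen after seeing the data. There wild type replicate 2 alone carried the wild type side, and the members' median was 0.118. With DESeq2 and with no filter 25130 genes had a p-value. DESeq2 can leave low-count genes out of its own adjustment, and the number it adjusted was not counted. The cause of the changes was not tested. No paired analysis was possible because the labels give the libraries no shared replicate numbers.

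The sign changes were these log2 fold changes. With no layout term: Slc25a15 -0.003, Tdo2 -0.046, Kynu -0.11, Haao 0.001, Aass -0.063 and Mccc1 0.002. With labelled sex: Slc25a15 -0.049, Gpt 0.007, Kynu -0.015, Aass -0.083, Mccc1 0.008 and Aldh4a1 0.024. In single-end libraries alone: Otc 0.25, Nags -0.048, Slc25a13 0.16, Got1 0.22, Tat 0.26, Haao 0.074 and Pccb 0.022. Mccc1 was at 0.002 with limma-voom, 0.029 with no filter and 0.007 with a minimum count of 50, and with no filter Gpt was at 0.011 and Haao at 0. Without both libraries that go against the labelled sex: Otc 0.30, Ass1 0.022, Arg1 0.47, Nags -0.080, Got1 0.12, Gpt2 0.17, Tat 0.68, Haao 0.074, Aldh7a1 0.50, Pccb 0.26, Aldh4a1 0.16, Amt -0.066 and Csad 0.53. Without 1 library in turn the ranges that crossed 0 were Aass -0.16 to 0.36, Agxt -0.17 to 0.045, Aldh4a1 -0.17 to 0.18, Aldh7a1 -0.29 to 0.23, Amt -0.054 to 0.41, Arg1 -0.40 to 0.074, Ftcd -0.026 to 0.41, Got1 -0.83 to 0.22, Gpt -0.084 to 0.061, Haao -0.063 to 0.082 and Hibch -0.019 to 0.48. They were also Kynu -0.092 to 0.52, Mccc1 -0.12 to 0.15, Nags -0.049 to 0.23, Otc -0.15 to 0.26, Pccb -0.18 to 0.071, Slc25a13 -0.20 to 0.16, Slc25a15 -0.048 to 0.51, Tat -1.33 to 0.28 and Uroc1 -0.25 to 0.15.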
